A study of Mus musculus with 2 samples.

Results

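S100a8, S100a9, Retnlg, G0s2, Lcn2, Saa3, Slpi, Wfdc21 and Stfa2l1, 9 of 32285 measured features, were described in mouse MC38 colon carcinoma tumors after injection into the tumor of MSA-2, which activates the innate immune sensor STING. The genes include acute-phase, alarmin and antiprotease genes, with the resistin-like gene Retnlg and the lipase inhibitor gene G0s2 beside them. They were taken by symbol, and they had been selected on their UMI counts over all cells, which were far higher in the MSA-2 library than in the untreated library, so every difference between the libraries given here is a description and carries no test. The question was in which cells their transcripts lay, and whether a gene was present in a cell type in the proportion that neutrophil RNA has or in another one. C57BL/6 mice aged 6 to 8 weeks carried subcutaneous tumors of the MC38 line, which were injected with MSA-2 every 3 days for 3 doses and collected on day 7. The other library, labelled untreated, came from tumors that the series record describes as injected with vehicle, a saline solution containing DMSO. Tumors of 3 mice were pooled for each library. Sorted cells were captured in droplets, and 3′ ends of polyadenylated transcripts were counted as unique molecular identifiers (UMIs). With 1 library per condition the spread between tumors is unknown.

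The acute-phase response is the release of defense proteins that follows infection or injury. Interleukin-6, interleukin-1 and TNF drive it in the liver, and some of its genes, Saa3 among them, are also switched on in fibroblasts and macrophages at the site of inflammation. S100a8 and S100a9 encode the subunits of calprotectin, a calcium- and metal-binding protein that fills the cytosol of neutrophils and acts as an alarmin, a danger signal, once it is released. Because neutrophils are fragile and rich in these transcripts, tissue suspensions that contain them can carry free neutrophil RNA into every droplet.

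The untreated library held 14386 barcodes and 198135335 UMIs, and the MSA-2 library held 14617 barcodes and 204387165 UMIs. After removal of barcodes with under 500 genes or over 20% mitochondrial UMIs and of doublet calls, 13334 untreated and 13393 MSA-2 cells remained, with medians of 8298.5 and 9271 UMIs per cell. The libraries shared 53 barcodes, of which 39 were kept in both. Classes were named from marker lists that excluded the 9 genes, and the neutrophil-like class held 42 untreated and 2650 MSA-2 cells. In the MSA-2 cells of this class all 12 neutrophil markers were found, with a summed level of 9712 CPM (UMIs scaled to the same total in each class and library). In the 42 untreated cells 10 of the 12 were found, at a summed 8110 CPM, while Ly6g and Cd177 were at 0. The epithelial-like class, 6593 untreated and 7048 MSA-2 cells, is the class in which the MC38 tumor cells of the label would be looked for, but it rested on Gng11, Anxa1 and Ccn1 only. Its keratin markers were at or near 0, with 1 untreated and 2 MSA-2 UMIs of Krt18, and its 10 clusters scored highest for the fibroblast list, at 0.161 to 0.386, below the minimum of 0.45 for a name. 2 clusters that could not be named, led by Ifnb1 and Cacna1d or by the mast cell genes Mcpt2 and Cma1 (368 and 369 untreated, 793 and 191 MSA-2 cells), are given only within the totals.

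The 250 bases before the RefSeq transcription start (GRCm38.p6) are shown for 5 genes, the calprotectin pair and the 3 genes whose distribution over cell types departed most from it, because all of them were higher in the MSA-2 library and their upstream sequence can be compared directly. S100a8 was read at chr3:90668821-90669070 on the plus strand. The others lie on the minus strand, S100a9 at chr3:90695722-90695971, Lcn2 at chr2:32387740-32387989, Saa3 at chr7:46715677-46715926 and Slpi at chr2:164356508-164356757. Capitals mark matches to the TATA box (TATAAA) or to the C/EBP letters (TTNNGCAA), on either strand, and every sequence runs 5′ to 3′ toward the start.
S100a8: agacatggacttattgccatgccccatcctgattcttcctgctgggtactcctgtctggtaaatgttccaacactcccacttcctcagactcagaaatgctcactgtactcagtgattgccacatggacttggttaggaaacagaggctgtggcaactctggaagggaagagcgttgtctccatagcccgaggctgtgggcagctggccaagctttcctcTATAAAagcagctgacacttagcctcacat
S100a9: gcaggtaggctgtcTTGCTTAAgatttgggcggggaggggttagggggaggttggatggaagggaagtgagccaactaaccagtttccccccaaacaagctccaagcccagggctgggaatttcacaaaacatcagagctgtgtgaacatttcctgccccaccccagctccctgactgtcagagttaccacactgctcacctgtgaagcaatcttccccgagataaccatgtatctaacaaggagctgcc
Lcn2: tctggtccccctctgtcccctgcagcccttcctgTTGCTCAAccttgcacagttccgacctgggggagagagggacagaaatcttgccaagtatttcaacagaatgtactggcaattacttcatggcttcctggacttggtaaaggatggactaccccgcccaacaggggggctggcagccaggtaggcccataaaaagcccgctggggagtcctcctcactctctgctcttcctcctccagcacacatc
Saa3: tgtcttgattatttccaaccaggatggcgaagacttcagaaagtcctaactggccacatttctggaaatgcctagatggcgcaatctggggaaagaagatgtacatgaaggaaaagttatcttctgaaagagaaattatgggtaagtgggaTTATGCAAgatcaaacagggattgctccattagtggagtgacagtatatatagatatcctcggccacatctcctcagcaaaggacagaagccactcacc
Slpi: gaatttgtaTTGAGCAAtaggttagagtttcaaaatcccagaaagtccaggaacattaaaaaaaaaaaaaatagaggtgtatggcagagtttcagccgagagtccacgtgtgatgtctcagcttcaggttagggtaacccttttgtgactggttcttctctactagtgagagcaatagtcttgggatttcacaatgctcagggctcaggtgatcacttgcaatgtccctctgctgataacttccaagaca

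The C/EBP letters were found in 5 of the 8 genes present in the promoter table (S100a9, Retnlg, Lcn2, Saa3 and Slpi), against 9.56% of 32851 promoters of the same length. In Saa3 the match lay 99 to 92 bases before the start, and in the other 4 genes it lay 246 to 209 bases before it. Of the 8 genes, S100a8 carried TATAAA, 30 to 25 bases before the start, as did 12.4% of all promoters. No match to the NF-kB letters (GGGA and CC with 4 bases of any kind between them, in 17.6% of promoters), the STAT letters (TTCNNNGAA, 7.02%) or the AP-1 letters (TGANTCA, 6.75%) was present in these windows on either strand, and no matches overlapped. The motifs were chosen after the sequences had been seen. The Saa3 window lies inside the annotated gene, which spans 46711998 to 46719615 on chromosome 7, because another annotated start lies upstream, and the Saa3 span overlaps Gm31882.

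Over all cells, each of the 9 genes was more than 2-fold higher in the MSA-2 library, as were 11.2% of 19509 tested genes (those reaching 20 UMIs when the libraries are added), while 8.36% were at least 2-fold lower. The rule chose the genes on this contrast, so nothing is read from that count. The differences lay between 5.39 for Saa3 and 9.66 for Retnlg on the log2 scale of CPM. Behind them stood different cell types. The neutrophil-like class, 2650 of 13393 MSA-2 cells, held 78.4% to 83.5% of the UMIs of S100a8, S100a9, Retnlg, G0s2, Wfdc21 and Stfa2l1 in its library. It held 57.5% of Slpi, 37.2% of Lcn2 and 0.808% of Saa3. The fibroblast-like class, 699 cells, held 75.8% of Saa3 and 40.4% of Lcn2. The plot of UMIs per cell by class shows this division.

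**Figure D1:**
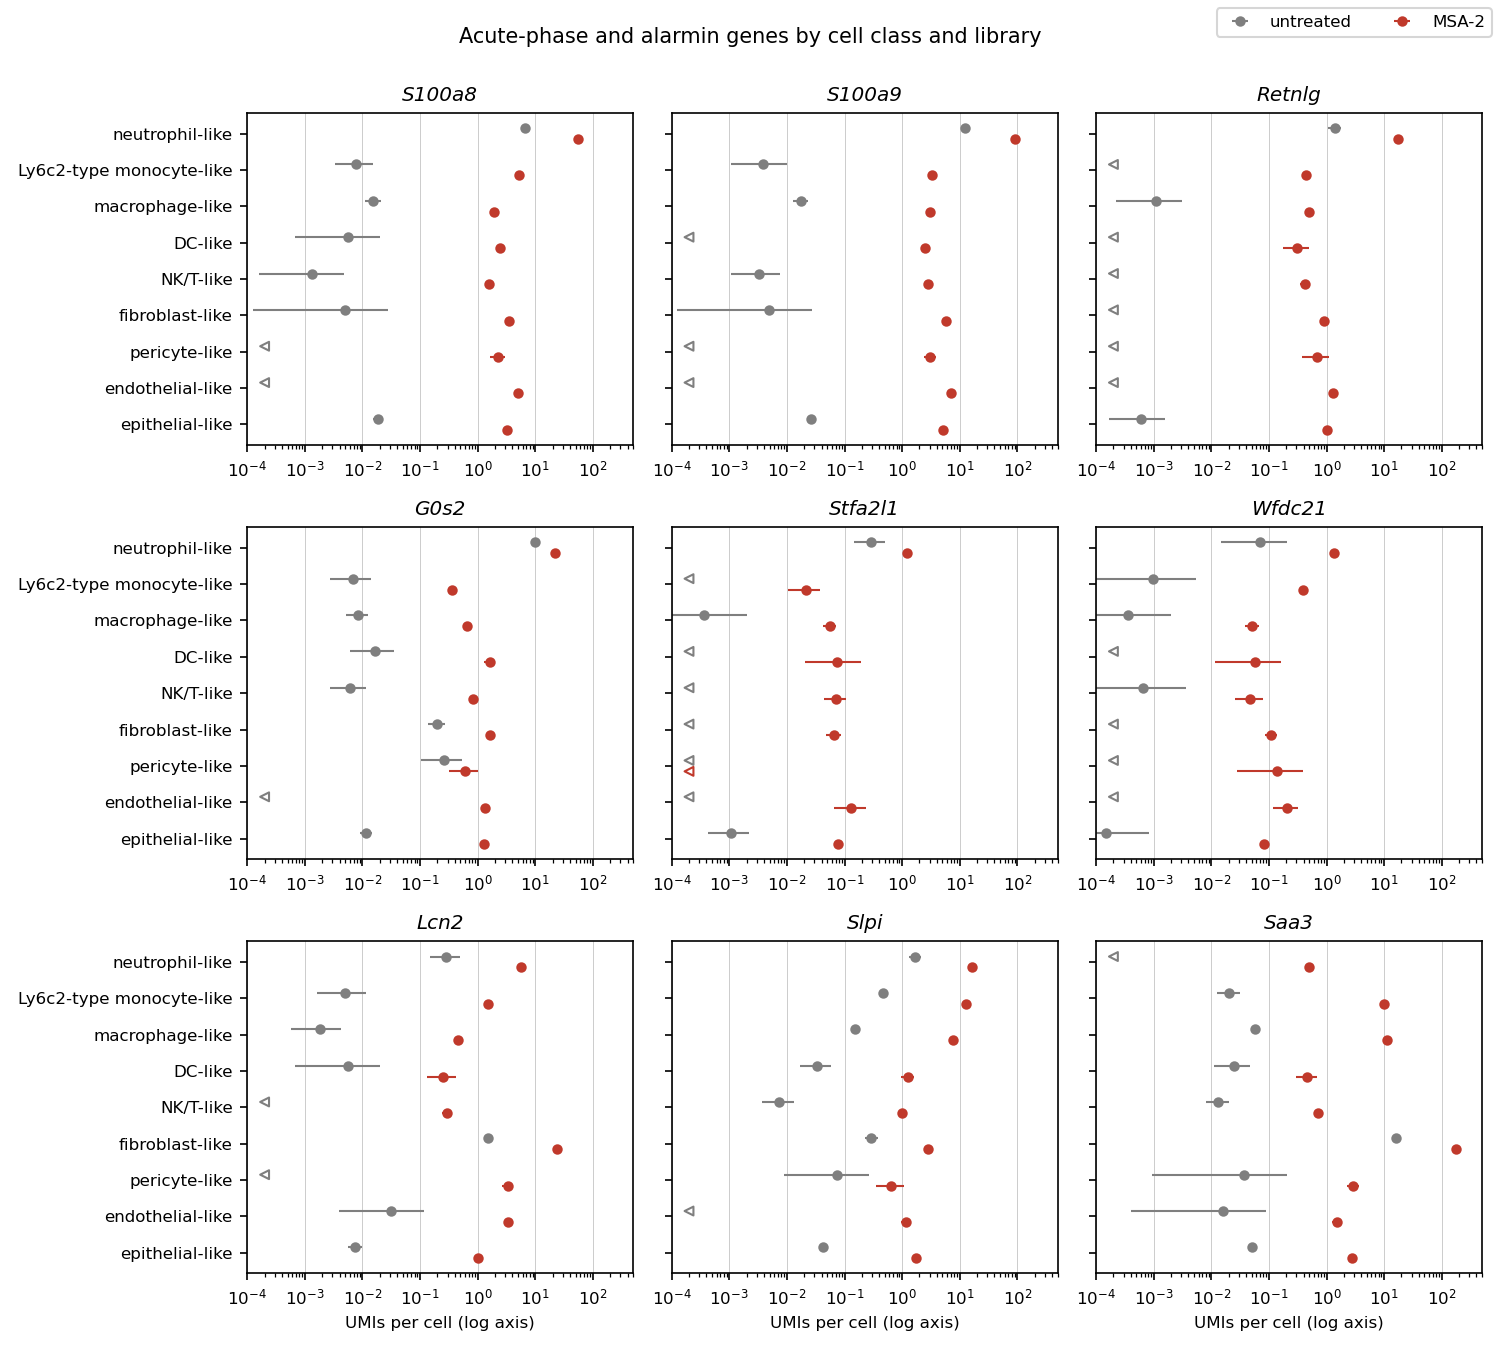
UMIs per cell of each gene in each cell class of the untreated and the MSA-2 library, on a log axis, with exact 95% Poisson intervals of the summed count; open left-pointing triangles mark 0 UMIs. S100a8, S100a9, Retnlg and G0s2 were highest in neutrophil-like cells of the MSA-2 library (54.1, 91.5, 17.3 and 21.6 UMIs per cell), whereas Saa3 and Lcn2 were highest per cell in fibroblast-like cells (178 and 23.5).

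S100a9 averaged 91.5 UMIs per neutrophil-like cell of the MSA-2 library (95% interval 91.1 to 91.8; all intervals here are exact and cover counting error only) and S100a8 54.1 (53.8 to 54.4). In the 42 untreated neutrophil-like cells the levels were 12.1 (11.1 to 13.2) and 6.57 (5.82 to 7.39). Both genes were thus carried by neutrophil-like cells in either library, and the untreated cells had a median depth of 1293 UMIs against 1795.5. Scaled to CPM, S100a9 was higher in MSA-2 by 2.44 on the log2 scale (2.31 to 2.56) and S100a8 by 2.56 (2.39 to 2.74). Other markers of this class differed as well. The 8 macrophage markers summed to 1622 CPM without and 348 CPM with MSA-2, and the 8 Ly6c2-type monocyte markers to 932 and 2973 CPM. Their part in the differences was not tested. In this class 31.4% of genes were at least 2-fold higher and 33.3% at least 2-fold lower, and scaling by trimmed means gave larger differences, 3.51 for S100a9 and 3.63 for S100a8.

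Outside the neutrophil-like class, S100a9 reached 7.02 UMIs per cell in endothelial-like, 5.75 in fibroblast-like, 5.08 in epithelial-like, 3.26 in Ly6c2-type monocyte-like and 3.09 in macrophage-like cells of the MSA-2 library. The first 4 of these had intervals apart from one another, whereas monocyte-like, macrophage-like, pericyte-like, NK/T-like and DC-like cells, at 3.26 to 2.53, overlapped with their neighbours in the order. The order is that of UMIs per cell and was another one on CPM, where DC-like cells were at 810, monocyte-like at 757, endothelial-like at 591, macrophage-like at 563, NK/T-like at 513, fibroblast-like at 374, pericyte-like at 327 and epithelial-like cells, the deepest, last at 219. Single cells carried part of both orders. Of the 590 S100a9 UMIs of endothelial-like cells 206 lay in 1 cell, and without it the class had 4.63 per cell (4.18 to 5.11) and 386 CPM, below fibroblast-like cells per cell. Of the 134 of DC-like cells 85 lay in 1 cell and of the 67 of pericyte-like cells 37 did, and without these cells the classes were at 304 and 154 CPM. In NK/T-like cells, which do not make calprotectin as a rule, it still averaged 2.79 UMIs (2.60 to 2.99). The same classes held almost none in the untreated library. The epithelial-like class had 170 S100a9 UMIs in 6593 untreated cells and 35791 in 7048 MSA-2 cells, a difference of 7.58 on the log2 scale (7.36 to 7.81). That value was 3.27 with a gate on single cells, which names each cell from its own markers, and 8.82 in thinned cells. Of this class the epithelial gate held only 505 cells. The fibroblast gate took 6312 of its cells, the macrophage gate 2564, and 3965 fell in none. The endothelial-like class had 0 in 63 cells and 590 in 84, at least 123-fold higher against a floor of 3 counts. All 9 genes were at least 2-fold higher in epithelial-like cells, where 11.1% of 18193 tested genes were and 6.18% were lower by as much.

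S100a8 stood near the neutrophil-like ratio to S100a9 in 4 of the 8 other classes. Neutrophil-like cells of the MSA-2 library had 0.591 S100a8 UMIs for each S100a9 UMI, and fibroblast-like (0.601), macrophage-like (0.617) and epithelial-like cells (0.642) were close to that value, a difference of 0.02 to 0.12 on the log2 scale. In NK/T-like cells the ratio was 0.554, an interval of the difference from -0.23 to 0.04. Endothelial-like and pericyte-like cells had higher ratios, 0.708 and 0.731, with differences of 0.26 (0.12 to 0.40) and 0.31 (-0.13 to 0.71). In endothelial-like cells 171 of the 418 S100a8 UMIs lay in 1 cell, and without it the ratio was 0.643. The endothelial-like sign turned when neutrophil reference genes, named below, replaced S100a9 or when cells with UMIs of them were left out. Retnlg encodes a resistin-like protein of neutrophils. Its 17.3 UMIs per neutrophil-like cell gave 0.190 per S100a9 UMI, and the ratio was 0.202 in epithelial-like, 0.188 in endothelial-like, 0.160 in macrophage-like, 0.157 in fibroblast-like, 0.136 in monocyte-like and 0.119 in DC-like cells (from 16 UMIs). In monocyte-like cells 100 of the 230 Retnlg UMIs lay in 1 cell, and in endothelial-like cells 58 of 111 did, and without these cells the ratios were 0.083 and 0.138. In DC-like cells the ratio was 0.224 without the highest cell and 0.1875 without the 2 highest. G0s2, an inhibitor of the lipase ATGL, had 21.6 UMIs per neutrophil-like cell and 0.237 per S100a9 UMI, against 0.257 in epithelial-like and 0.283 in fibroblast-like cells. In the monocyte-like class the G0s2 ratio was more than 2-fold lower, at 0.108. In the DC-like class it was 0.634, but 2 of the 53 cells held 75 of the 85 UMIs. In untreated cells G0s2 was at 9.83 UMIs per neutrophil-like cell, and its CPM differed by 0.66 between the libraries, the smallest difference of the 9 genes in this class and the one whose sign turned to -0.44 with a stricter cell filter.

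Ly6c2-type monocyte-like cells had the highest S100a8 ratio of the 8 classes. They carried 5.24 UMIs of S100a8 and 3.26 of S100a9 per cell, 1.61 S100a8 UMIs per S100a9 UMI, which is higher than the neutrophil-like ratio by 1.44 on the log2 scale (1.39 to 1.5). In the 157 of 518 monocyte-like cells without any UMI of 8 neutrophil reference genes (Hdc, Cxcr2, Ly6g, Il1r2, Csf3r, Mmp8, Cd177 and Asprv1), S100a8 was at 1.68 UMIs per cell and S100a9 at 1.18, a ratio of 1.41. The comparison depended on the measure. With the summed reference genes in place of S100a9 it turned to -1.36, and with doublet calls kept it was 0.89. Monocyte-like cells had 2.04 reference UMIs per cell beside 8.18 in neutrophil-like cells. In the untreated library the reference genes were at 0.848 UMIs per monocyte-like, 0.457 per macrophage-like and 3.16 per DC-like cell. S100a9 had only 4, 48 and 0 UMIs in these untreated classes. The source of the reference UMIs in them was not tested. All 12 neutrophil markers were found in MSA-2 monocyte-like cells, at a summed 1668 CPM. They were also all found in macrophage-like (987 CPM), fibroblast-like (157) and epithelial-like cells (86.6). S100a8 was also uneven among monocyte-like cells, with 27.4% of its UMIs in the top 1% of cells and up to 176 in a single cell. DC-like cells, 53 in the MSA-2 library, had a ratio of 0.97, but 1 cell carried 71.5% of their S100a8 UMIs, and without it the ratio was 0.755.

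Wfdc21 and Stfa2l1 were scarce. Wfdc21, a whey acidic protein domain gene, had 1.36 UMIs per neutrophil-like cell, 0.396 per monocyte-like cell and at most 0.202 elsewhere in the MSA-2 library. Its ratio to S100a9 was higher in monocyte-like than in neutrophil-like cells by 3.02 on the log2 scale (2.81 to 3.23), but by 0.22 with the reference genes in place of S100a9. In the monocyte-like cells without reference UMIs it was at 0.115 UMIs per cell, from 18 UMIs. Stfa2l1, a stefin-type protease inhibitor gene, had 1.23 UMIs per neutrophil-like cell and 0 to 0.131 in the other classes. It belongs to a family of near-identical copies whose reads the counting can split, so its level is uncertain.

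Saa3, an inflammation-induced serum amyloid A protein, was the gene least tied to neutrophils. Fibroblast-like cells of the MSA-2 library averaged 178 UMIs per cell (177 to 179), and macrophage-like cells followed with 11.4 (11.2 to 11.6), Ly6c2-type monocyte-like cells with 9.88 (9.62 to 10.2), pericyte-like cells with 2.91 (2.24 to 3.71) and epithelial-like cells with 2.77 (2.73 to 2.81). The intervals of the pericyte-like and epithelial-like classes overlapped, and the other neighbours were apart. Endothelial-like cells had 1.51, NK/T-like cells 0.700, neutrophil-like cells 0.50 and DC-like cells 0.453 UMIs per cell. By UMIs per cell, neutrophil-like cells were first in order for 7 of the 9 genes and near the end for Saa3, with an interval that overlapped that of DC-like cells. On CPM their Saa3 level of 260 stood above DC-like (145), NK/T-like (129), endothelial-like (127) and epithelial-like cells (120).

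Fibroblast-like cells were also the main holders of Saa3 in the untreated library, with 15.8 UMIs per cell and 85.1% of all its UMIs. On CPM the MSA-2 level was higher by 3.16 on the log2 scale (3.1 to 3.21), or 8.91-fold, and by 3.97 with cells chosen by a gate on single cells. The fibroblast gate took in 6312 cells of the epithelial-like class beside 872 of the fibroblast-like class, so its value is not one for this class alone. Marker levels in this class differed as well, with the 9 fibroblast markers at a summed 51322 CPM without and 26003 CPM with MSA-2, the 8 Ly6c2-type monocyte markers at 1524 and 4464 CPM and the 8 macrophage markers at 1304 and 330 CPM, and their part in the difference was not tested. All 9 genes were at least 2-fold higher in this class, as were 9.39% of 12424 tested genes (9.23% were lower), and the median of the 9 was 3.16 with genes at 0 set to the floor, beside -0.13 for all tested genes. The spread among fibroblast-like cells differed between the libraries. In untreated tumors 36.8% of them had a Saa3 UMI, the median cell had 0, and the top 1% of cells held 33.0% of the UMIs, with up to 469 in a single cell. In MSA-2 tumors 95.6% had one, the quartiles were 16 and 262.5 with a median of 101, and the top 1% held 6.52%. Cells were then thinned to 1500 UMIs each, for which 5 untreated and 20 MSA-2 cells of the class were too shallow, and the shares with a Saa3 UMI were 29.6% and 85.1%. In NK/T-like cells, taken as the measure of background, they were 0.556% and 19.3%, at median depths of 3334 and 4427.5 UMIs against 11522 and 13341 in the fibroblast-like class.

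**Figure D2:**
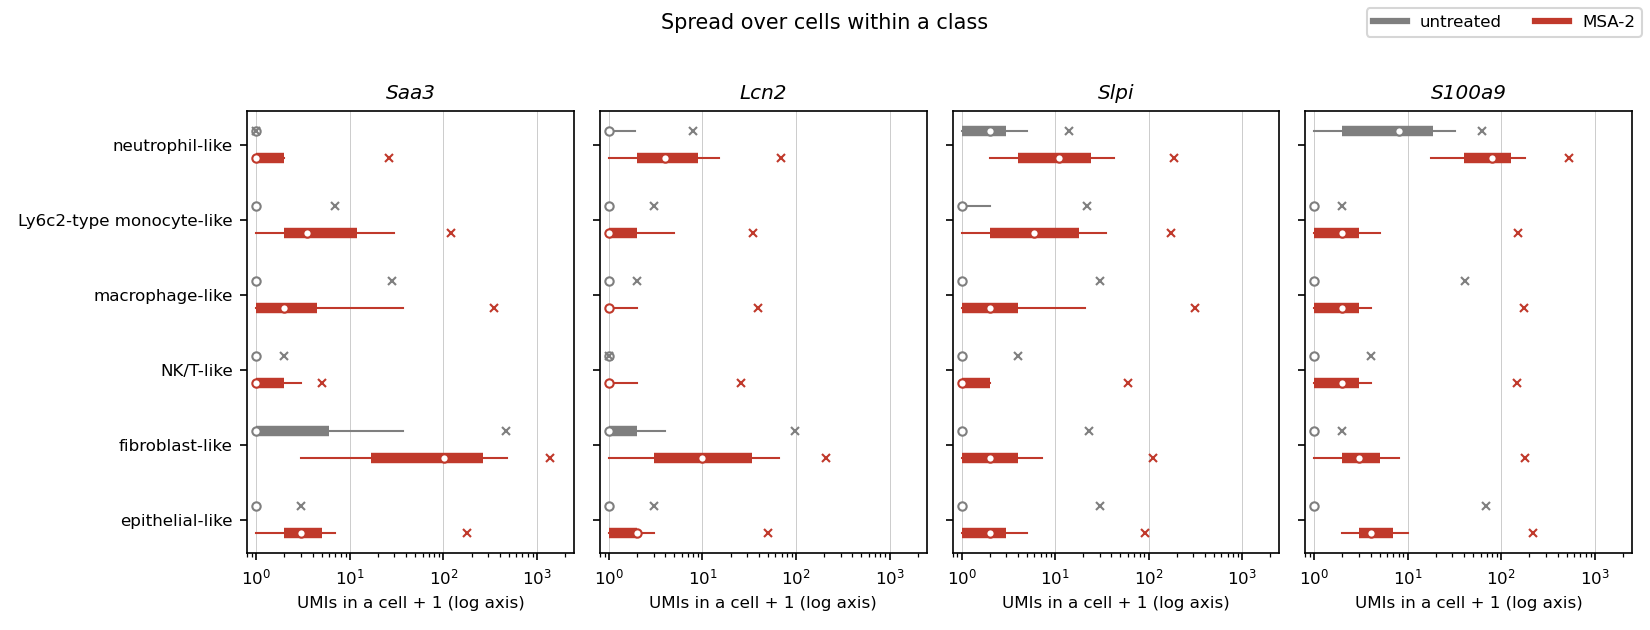
Distribution of UMIs per cell over the cells of the main classes, by library, on a log axis of UMIs plus 1; bars span the 25th to the 75th percentile, thin lines the 10th to the 90th, open circles are medians and crosses the highest cell. The median fibroblast-like cell had 0 Saa3 UMIs without and 101 with MSA-2, and the highest cells had 469 and 1379.

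In the myeloid classes Saa3 was close to absent in the untreated library, at 0.021 UMIs per monocyte-like cell (21 UMIs in 1019 cells) and 0.057 per macrophage-like cell (158 in 2779). The MSA-2 levels were higher by 9.02 on the log2 scale in monocyte-like cells (8.41 to 9.71) and by 7.83 in macrophage-like cells (7.60 to 8.07). The make-up of both classes differed between the libraries. In monocyte-like cells the 8 macrophage markers summed to 17165 CPM without and 5953 CPM with MSA-2, and the 8 Ly6c2-type monocyte markers to 3897 and 10575 CPM. Of the 1019 untreated and 518 MSA-2 cells of the class together, the gate put 687 with the macrophages and 619 with the monocytes. After thinning, 60.9% of monocyte-like and 39.8% of macrophage-like cells of the MSA-2 library had a Saa3 UMI, above the 19.3% of NK/T-like cells, at median depths of 4089.5, 5117 and 4427.5 UMIs, and the unthinned shares were 76.6%, 64.3% and 47.7%. Among macrophage-like cells the level was concentrated. The cluster led by Pf4, Ccl6 and Ccl8, which includes the resident-type gene Folr2 among its leading genes, had 37.7 UMIs per cell in 223 MSA-2 cells and 1.16 in 80 untreated cells, and these were 223 of 1035 and 80 of 2779 cells of the class. The larger cluster led by Apoe and C1qc had 1.38 in 533 cells, and that led by C1qc and C1qa 1.5 in 24 cells. Within these 3 of the 4 macrophage-like clusters the Saa3 difference was 4.96, 6.55 and 5.09 on the log2 scale, beside 7.83 for the class, and how much of the latter came with its make-up was not tested.

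Per S100a9 UMI, the monocyte-like, macrophage-like and fibroblast-like classes carried 3.03, 3.69 and 30.9 Saa3 UMIs, whereas neutrophil-like cells carried 0.00546, differences of 9.12, 9.40 and 12.47 on the log2 scale, or 6.31, 7.71 and 11.06 with the reference genes in place of S100a9. All cells outside each class, pooled as another possible source, had 0.551, 0.530 and 0.139 per S100a9 UMI, which leaves 2.46 for monocyte-like and 7.80 for fibroblast-like cells. In cells without reference UMIs the Saa3 level was 131 UMIs per fibroblast-like cell (309 of 699 cells), 8.77 per macrophage-like cell (593 of 1035) and 8.20 per monocyte-like cell, against 178, 11.4 and 9.88 in all cells of these classes. S100a9 was at 2.34, 1.33 and 1.18 in the same cells, against 5.75, 3.09 and 3.26. These cells were picked for lacking neutrophil genes and were not matched for depth, with which UMIs per cell rise. How much of either change came with depth was not tested.

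**Figure D3:**
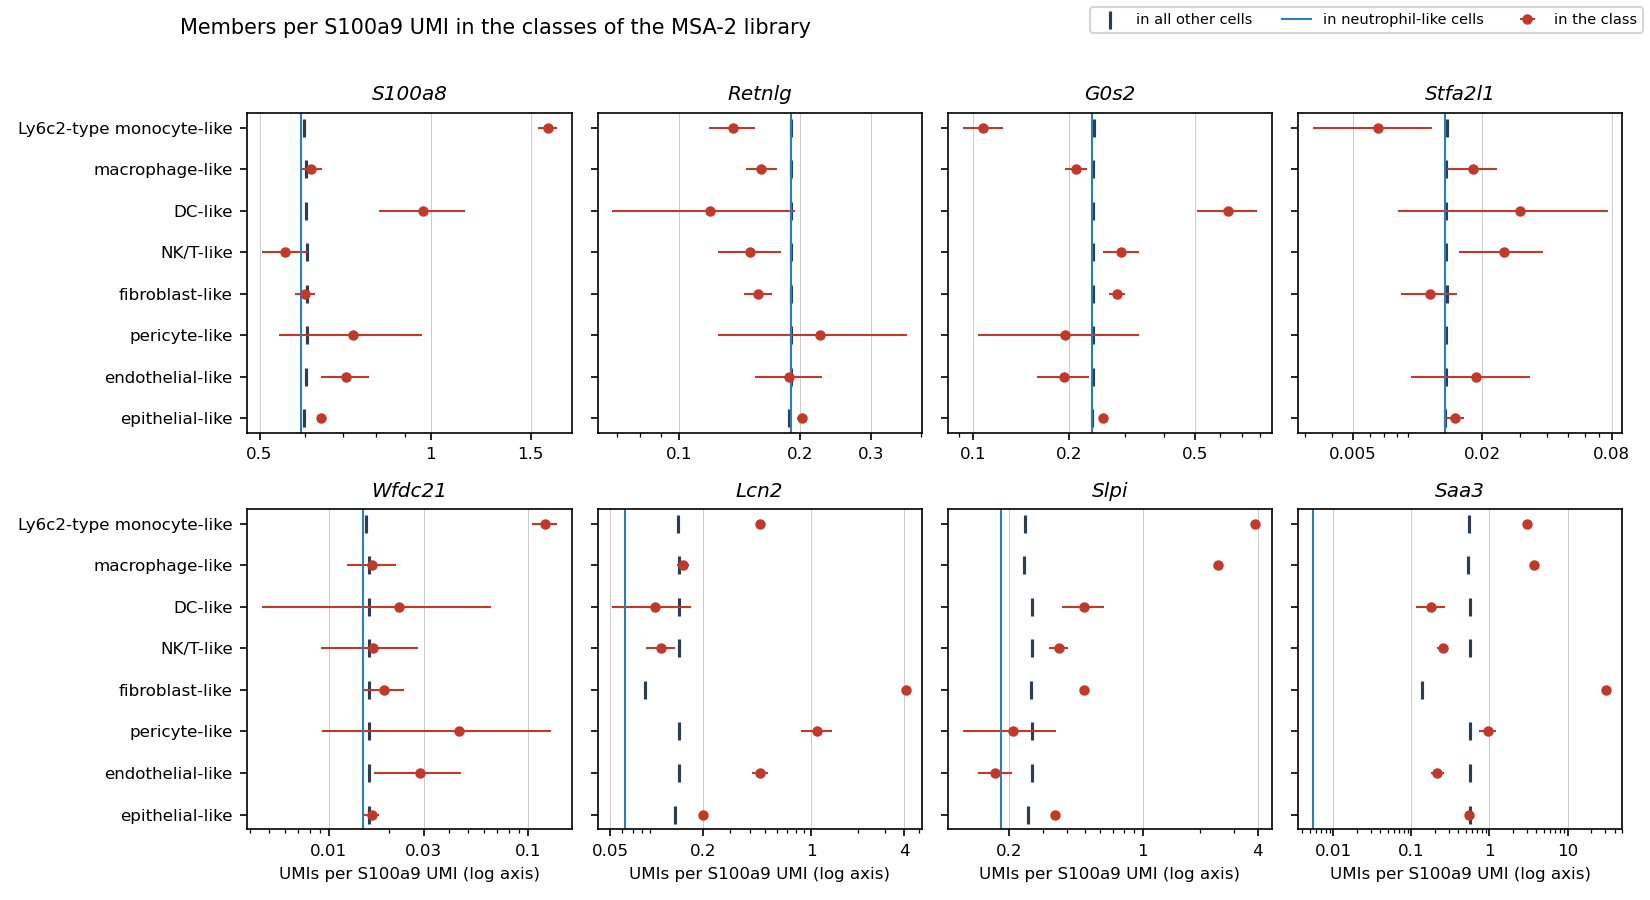
UMIs of each gene per S100a9 UMI in each class of the MSA-2 library (red points with 95% intervals), with all cells outside the class (dark ticks) and neutrophil-like cells (blue line), on log axes. S100a8 lay near the blue line in fibroblast-like cells (0.601 against 0.591), whereas Saa3 in fibroblast-like cells stood at 30.9 against 0.00546 in neutrophil-like cells and Lcn2 at 4.09 against 0.0624.

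Lcn2, the iron-siderophore binding protein lipocalin-2, had 23.5 UMIs per fibroblast-like cell (23.1 to 23.9) and 5.71 per neutrophil-like cell (5.62 to 5.80) in the MSA-2 library. Scaled for depth the order of both classes turned, with 1529 CPM in fibroblast-like and 2973 CPM in neutrophil-like cells. By UMIs per cell, pericyte-like and endothelial-like cells followed with 3.32 and 3.30, whose intervals overlapped. Of the 73 Lcn2 UMIs of pericyte-like cells 44 lay in 1 cell, and without it the level was 1.38. Monocyte-like cells had 1.53, epithelial-like cells 1.02, macrophage-like cells 0.458 and NK/T-like cells 0.297. In the untreated library fibroblast-like cells had 1.53 UMIs per cell and 80.4% of all Lcn2 UMIs, and neutrophil-like cells had 0.286. On CPM the MSA-2 level was higher by 3.61 on the log2 scale in fibroblast-like cells (3.44 to 3.77). It was higher by 3.84 in neutrophil-like cells (3.04 to 4.80, from 12 untreated UMIs). The fibroblast gate, which took in mostly epithelial-like cells, gave 4.62. After thinning, 84.0% of neutrophil-like and 61.7% of fibroblast-like MSA-2 cells had an Lcn2 UMI, against 5.56% of NK/T-like cells, and unthinned 82.1%, 86.7% and 17.3%.

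The ratio of Lcn2 to S100a9 was 0.0624 in neutrophil-like cells and 4.09 in fibroblast-like cells, a difference of 6.03 on the log2 scale (6.0 to 6.06), and it was 1.09 in pericyte-like cells (0.439 without that cell) and 0.469 in both endothelial-like and monocyte-like cells. With the reference genes in place of S100a9, the difference from neutrophil-like cells was 4.63 in fibroblast-like, 1.71 in endothelial-like, 0.11 in monocyte-like and -0.45 in macrophage-like cells. The monocyte-like and macrophage-like classes also held reference UMIs in the untreated library, as given above. Without reference UMIs, 17.3 UMIs of Lcn2 remained per fibroblast-like cell and 1.0 per endothelial-like cell (46 of 84 cells, against 3.30 in all). Across the 699 fibroblast-like cells, Lcn2 and Saa3 went together, with Pearson's r of 0.65 on the log2 depth-scaled level, while S100a9 and Saa3 had an r of -0.02 and S100a8 and S100a9 an r of 0.63. These are values across cells of 1 library, which share its depth, and cells are not replicates. In 4 equal bins of depth of the fibroblast-like class, from the shallowest to the deepest, Saa3 stood at 61.8, 148, 245 and 257 UMIs per cell and Lcn2 at 7.65, 23.4, 32.2 and 30.9.

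Slpi encodes an inhibitor of neutrophil elastase. It was first in neutrophil-like cells, at 16.6 UMIs per cell (16.5 to 16.8) in the MSA-2 library and 1.67 in the untreated library, and second in Ly6c2-type monocyte-like cells, at 12.7 (12.4 to 13) and 0.458. Macrophage-like cells had 7.65 (7.48 to 7.82) and 0.15. Both myeloid classes were the main holders of Slpi in the untreated library, with 34.8% and 31.0% of its UMIs against 5.21% in the 42 neutrophil-like cells. On CPM, Slpi was higher in MSA-2 by 4.91 on the log2 scale in monocyte-like cells (4.77 to 5.05; 3.28 with the gate), by 5.86 in macrophage-like cells (5.71 to 6.0) and by 2.84 in neutrophil-like cells (2.50 to 3.20). All 8 genes with at least 20 UMIs in monocyte-like cells were at least 2-fold higher, as were 9.3% of 10463 tested genes (13.4% were lower). In macrophage-like cells all 9 were, as were 7.93% of 12952 (7.1% were lower).

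The 7.65 Slpi UMIs per macrophage-like cell of the MSA-2 library were not the level of most cells of the class. In the cluster led by Pf4 and Ccl6, where Saa3 was high, Slpi was at 2.92 UMIs per cell, in the cluster led by Apoe and C1qc it was at 1.5 (797 UMIs in 533 cells), and in the cluster led by C1qc and C1qa at 0.667 (16 in 24 cells). Most Slpi UMIs of the class lay in its remaining cluster, on which its values for Slpi therefore rest. Thinned shares of cells with a Slpi UMI were 93.0% in neutrophil-like, 65.7% in monocyte-like, 32.3% in macrophage-like and 12.2% in NK/T-like cells, and the unthinned shares were 92.6%, 80.7%, 53.5% and 30.3%. Per S100a9 UMI, Slpi was at 3.89 in monocyte-like and 2.47 in macrophage-like cells, against 0.182 in neutrophil-like cells. These were differences of 4.42 and 3.76 on the log2 scale, or 1.62 and 2.07 with the reference genes in place of S100a9. Both classes also held reference UMIs in the untreated library, as given above. Monocyte-like cells without reference UMIs had 8.67 Slpi UMIs per cell and macrophage-like cells 4.76.

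**Figure D4:**
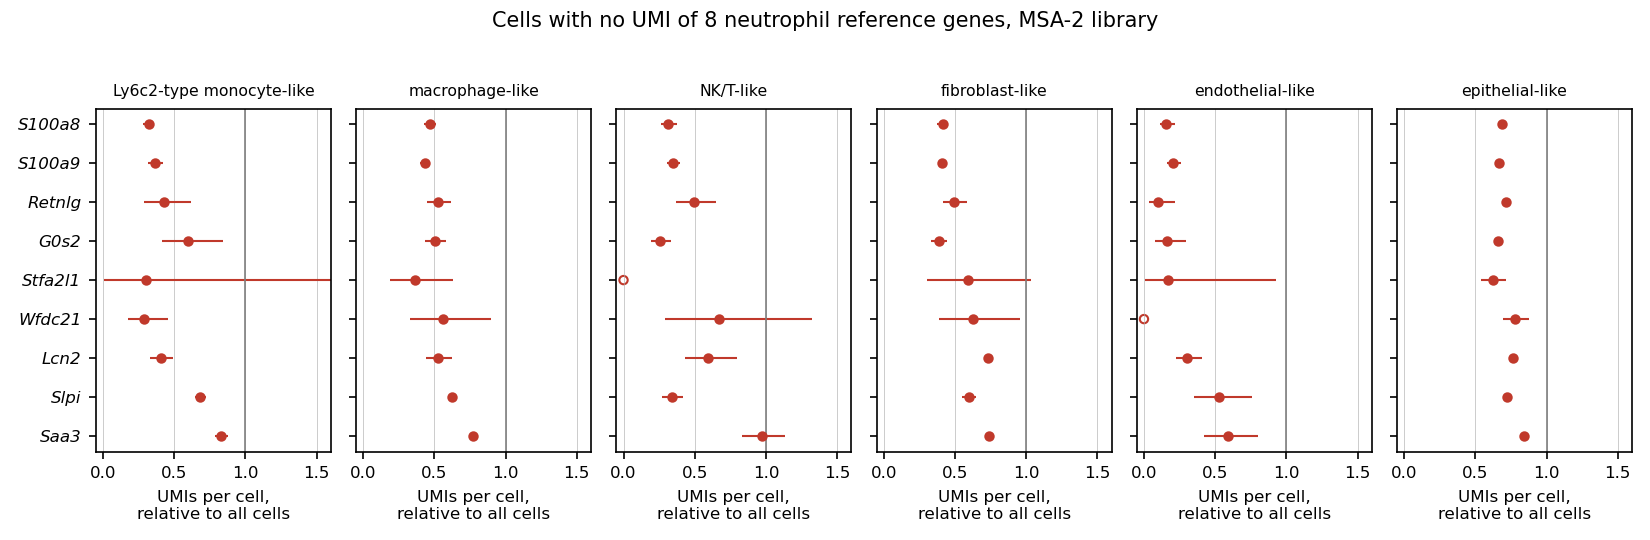
UMIs per cell in MSA-2 cells with no UMI of the 8 neutrophil reference genes, relative to all cells of the same class, by gene; open circles mark 0 UMIs. Saa3 kept most of its level in fibroblast-like (131 of 178 UMIs per cell) and monocyte-like cells (8.20 of 9.88), whereas S100a9 was at 2.34 of 5.75 and 1.18 of 3.26. The cells were not matched for depth.

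Epithelial-like cells carried every one of the 9 genes at a low level in the MSA-2 library. S100a8, Retnlg, G0s2, Wfdc21 and Stfa2l1 stood in nearly the same ratio to S100a9 as in neutrophil-like cells, with differences of 0.09 to 0.15 on the log2 scale. With the reference genes in place of S100a9 each of these genes was below its neutrophil-like ratio, as was Wfdc21 with the gate. Saa3 (0.546 per S100a9 UMI), Slpi (0.350) and Lcn2 (0.201) were above the neutrophil-like ratio by 6.64, 0.94 and 1.69. Against the pool of all other cells of the library, however, Saa3 was at 0.546 beside 0.568 (a difference of -0.056), and Slpi and Lcn2 differed by 0.47 and 0.61. For Saa3 the position of the epithelial-like class therefore turned with the source it was compared with.

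The 10 epithelial-like clusters ranged from 2.32 to 7.44 S100a9 UMIs and from 1.57 to 4.30 Saa3 UMIs per MSA-2 cell, at median depths of 12191 to 37193 UMIs. The ratio of Saa3 to S100a9 ranged from 0.469 to 0.676 among them, Slpi to S100a9 from 0.303 to 0.383 and Lcn2 to S100a9 from 0.171 to 0.230. In 4 equal bins of depth, from a median of 8477 to one of 39747.5 UMIs, S100a9 went from 2.08 to 9.06 UMIs per cell and Saa3 from 1.17 to 5.01, while their ratio stayed at 0.565, 0.540, 0.532 and 0.553. A Saa3 UMI was found in 85.8% of epithelial-like MSA-2 cells, where an even spread over all UMIs of the class would give 84.5%. After thinning the share was 16.5%, below the 19.3% of NK/T-like cells, and 10.9% for Slpi and 6.53% for Lcn2 stood beside 12.2% and 5.56%. At this depth the thinned shares of the 3 genes did not separate epithelial-like from NK/T-like cells, since their intervals overlapped. The UMIs of S100a9 and Saa3 per MSA-2 epithelial-like cell thus rose with depth. On CPM they were lower in the deepest bin than in the shallowest, at 208 against 257 for S100a9 and 115 against 145 for Saa3. The neutrophil reference genes summed to 0.653 UMIs per epithelial-like cell in the MSA-2 library against 0.0878 in the untreated library. Whether these UMIs came from RNA outside the cell was not tested, since droplets without cells were not analysed here.

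**Figure D5:**
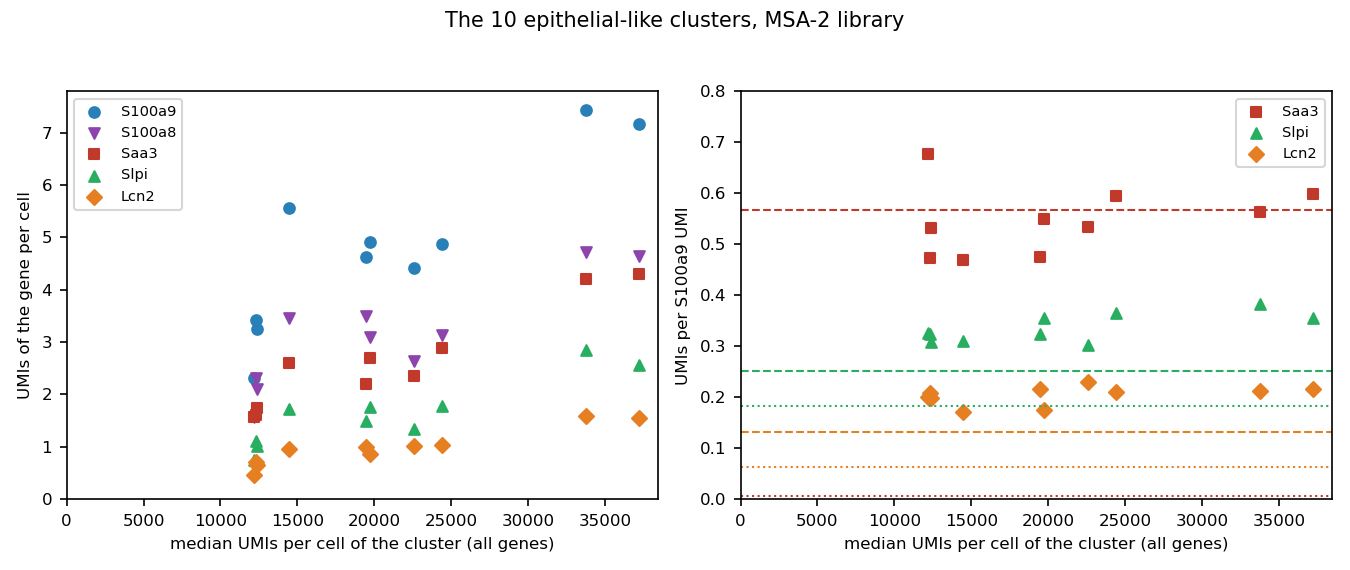
The 10 epithelial-like clusters of the MSA-2 library by median depth (UMIs per cell), with UMIs per cell of 5 genes on the left and UMIs per S100a9 UMI on the right; dashed lines give all cells outside the class and dotted lines neutrophil-like cells. S100a9 lay at 2.32 UMIs per cell in the shallowest and 7.17 in the deepest cluster, without rising at every step between them, while Saa3 per S100a9 UMI stayed between 0.469 and 0.676.

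NK/T-like cells gave a second comparison. Their 0.251 Saa3 UMIs per S100a9 UMI were below the 0.566 of all other cells, a difference of -1.17 on the log2 scale, and in the 255 of 300 cells without reference UMIs Saa3 was at 0.682 UMIs per cell against 0.700 in all, while S100a9 was at 0.976 against 2.79. Of S100a9, 41.8% of the UMIs lay in the top 1% of these cells, and of Saa3 5.71%. A Saa3 UMI was found in 47.7% of NK/T-like cells, near the 45.1% that an even spread would give, and an S100a9 UMI in 55.3% against 83.0%. Saa3 was thus spread evenly among these cells, whereas S100a9 was uneven and lower in those without reference UMIs.

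Other acute-phase genes were looked up in the same classes. Of 24 such genes, 15 could be tested in fibroblast-like cells, and 9 were at least 2-fold higher and 0 at least 2-fold lower, beside 9.39% and 9.23% of all tested genes, with a median of 1.96 on the log2 scale beside -0.13 for all tested genes. The opsonin Ptx3 was at 576 CPM in fibroblast-like cells of the untreated library and at 2536 with MSA-2, complement factor B (Cfb) at 565 and 1294 and the copper carrier ceruloplasmin (Cp) at 42.1 and 188. Complement C3 was high in both, at 999.8 and 1129.8 CPM. In monocyte-like cells 7 of 10 tested were higher and 1 lower, beside 9.3% and 13.4% of all, with a median of 2.14. Higher levels were not particular to these classes. In epithelial-like cells 12 of 15 were higher and 1 lower, beside 11.1% and 6.18% of all, with a median of 2.05. In NK/T-like cells the median of the 8 tested genes was 2.37 beside -0.13 for all tested genes. In DC-like cells the median of the 5 tested genes was 0.83 beside -0.21 for all tested genes. The list was drawn up with earlier results of these data known, and its counts are descriptions.

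Of 15 cytokines, receptors and regulators of the acute-phase response, 3 were at least 2-fold higher in fibroblast-like cells and 0 were at least 2-fold lower, beside 9.39% and 9.23% of all tested genes, and their median was 0.61 on the log2 scale. The 3 were Il6, at 202 and 783 CPM, Il1a, at 3.27 and 33.6 CPM, and Tnf, at 10.6 and 87.4 CPM. In monocyte-like cells 8 were higher and 1 lower, beside 9.3% and 13.4% of all tested genes, and the median was 1.07 against -0.29 for all. There Il6 was at 3.79 and 433 CPM and Tnf at 129 and 1430 CPM, whereas Il1b was lower, at 4890 and 1945 CPM.

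Across 15 profiles, the named classes of each library with at least 50 cells, the genes whose log2 CPM was most like that of Saa3 among 6421 genes were Serpinb2 (Pearson's r 0.87), Il6 (0.87), Plekha4 (0.87), Ptx3 (0.86) and Rarres2 (0.84). For Slpi they were Cxcl3, Trim30c, Acod1, Slfn4 and Slfn8 (0.95 to 0.94), and for Lcn2 Trim56, Serpinb2, Carhsp1, Ifit3 and Usp18 (0.89 to 0.84). The genes were picked as the most alike of all, and the profiles share 2 libraries, so the values describe these data only.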

How the data were processed

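The deposited values are the authors' raw counts of UMIs from Cell Ranger (7.0.0 in the submitters' processing notes, 7.0.1 in the matrix headers; build mm10), not normalized; the number of barcodes equals the cell number that the study gives after its filter. Their Seurat objects were not used here. The cell filter was 500 genes or more and 20% mitochondrial UMIs or less, and doublets were called per library with Scrublet (scanpy 1.11.5, 0.8% per 1000 barcodes). Whether doublets had been removed before deposit is not given in the sources used here. Clustering used Seurat 5.3.0 under R 4.3.3 (reciprocal PCA integration, 2000 variable genes, 30 dimensions, resolution 1, seed 1). Interferon-stimulated genes by name (106 features) and the 9 genes described were kept out of the variable genes. A cluster took the name of the marker list with a scaled score of at least 0.45, a lead of 0.1 over the next list and at least 3 markers in 10% of cells, a rule set after the clusters were seen. This left 1 cluster unnamed, whose mast and skeletal muscle scores were too close. Another, with a myeloid score of 0.673, stayed unnamed because it was shallow (median UMIs under 1/3 of its libraries') with under 2 of its markers among its top 10 genes. Clusters in which no list reached 0.45 were called epithelial-like where 3 epithelial markers were in 10% of cells, as in most other clusters too, and the mean depth was over 3000 UMIs.

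UMIs were summed per class and library and given per cell, as CPM or per S100a9 UMI. Ratios between libraries are log2 of CPM without a pseudocount, genes reaching 20 UMIs when the libraries are added were counted as tested, and called means at least 2-fold. Intervals are exact at 95% (Poisson, Clopper-Pearson, conditional binomial) and cover counting error only. A count of 0 was taken to allow 3 counts over the class. For shares of cells with a UMI, each cell was thinned to 1500 UMIs, without those under that depth. With 1 library per condition no test was made. The genes printed are the 9 described, 2 to 4 genes of each list and the 5 genes most like Saa3, Lcn2 and Slpi over log2 of CPM plus 10; TMM factors are from edgeR 4.0.16. These genes, the lists and the alternatives were chosen with earlier results of these data known. The ratio and interval computations were tested on simulated data. Promoters come from RefSeq (GRCm38.p6), where 8 of the 9 genes matched; Wfdc21 is named only. The values of 1 macrophage-like cluster are not reported here. Alternatives covered the cell filter, doublets, variable genes, resolution, single-cell gates, scaling, thinning, low-count filters and the reference for neutrophil RNA, and leaving out the 1 or 2 highest cells of a class was added after seeing the data. Python 3.11.15, pandas 2.3.3, numpy 2.4.6 and scipy 1.17.1 were used for all sums.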

Additional observations from a re-analysis of the deposited data

Results flagged for a closer look

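Barcodes that failed the cell filter carried S100a9 in the MSA-2 library. The 654 such barcodes, with a median depth of 712 UMIs, averaged 15.1 S100a9 UMIs (14.8 to 15.4), whereas the 347 untreated ones, with a median of 660 UMIs, held 0 S100a9 UMIs, which allows up to 0.00865 per barcode. Saa3 stood at 0.401 UMIs per barcode (0.354 to 0.452) in the MSA-2 library and at 0.0144 (0.00468 to 0.0336) in the untreated one. These barcodes enter no comparison of the report, and the level in the untreated library served as the control that put them here. What these barcodes were was not tested.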

How the results depend on the processing

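Depth and the single library per condition limit all values, and only filtered barcodes were read, so the composition of free RNA was not measured. No paired analysis was possible because each condition has 1 library. Of 398 alternative log2 ratios 1 changed sign, G0s2 in neutrophil-like cells (-0.44 with the strict cell filter, 1000 genes or more and 10% mitochondrial UMIs or less), and of 424 alternative ratios to S100a9 relative to neutrophil-like cells 28 did. Causes were not tested.

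For Saa3 in fibroblast-like cells the log2 ratio was 3.97 with a gate on single cells, 3.49 on UMIs per cell, 3.06 with equal weight per cell, 3.35 with TMM scaling and 2.96 in thinned cells. For Lcn2 there it was 4.62 with the gate, 3.94 on UMIs per cell, 3.8 with TMM scaling as in thinned cells. For Slpi in Ly6c2-type monocyte-like cells it was 5.15 with doublets kept, 4.54 with the 9 genes among the variable genes, 3.28 with the gate, 4.77 with equal weight, 5.08 with TMM scaling and 4.74 in thinned cells. For S100a9 in epithelial-like cells it was 3.27 with the gate, 7.97 with equal weight and 8.82 in thinned cells. The fibroblast gate took in 6312 cells of the epithelial-like class beside 872 of the fibroblast-like class. The epithelial gate held 505 cells of the epithelial-like class, so all gate values for that class rest on a small part of it. In thinned cells Saa3 was at 18.4 UMIs per fibroblast-like and 0.185 per epithelial-like cell. Genes at least 2-fold higher numbered 1166 in fibroblast-like cells (5084 without a low-count filter, 575 at a minimum of 100 UMIs) and 2024 in epithelial-like cells (4540 and 1068).

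The ratio to S100a9 relative to neutrophil-like cells (log2) was, for S100a8 in monocyte-like cells, 0.89 with doublets kept, 1.62 with the 9 genes among the variable genes, 1.09 at resolution 0.5, 1.18 with the gate, 1.92 against Retnlg, 1.26 in cells without reference UMIs and -1.36 against the reference list. For Saa3 in epithelial-like cells it was 6.31 with the strict filter, 6.31 with doublets kept, 6.13 with the gate, 6.55 against Retnlg, 6.12 against the reference list, 6.99 in cells without reference UMIs and -0.056 with all other cells as the source. For Retnlg there it was -0.20 with the strict filter, 0.25 with the gate, 0.19 in cells without reference UMIs and -0.43 against the reference list.

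Other signs turned as follows. With the strict filter Wfdc21 in epithelial-like cells was at -0.087, and with the gate it was at -1.74, Retnlg in fibroblast-like cells at 0.085 and Stfa2l1 in monocyte-like cells at 0.30. Against Retnlg, G0s2 in macrophage-like cells was at 0.076. Against the reference list, epithelial-like S100a8, G0s2, Wfdc21 and Stfa2l1 were at -0.40, -0.40, -0.39 and -0.37, endothelial-like S100a8 and Wfdc21 at -0.94 and -0.25, NK/T-like G0s2 at -0.23, fibroblast-like G0s2 at -1.14, and macrophage-like Lcn2 and Stfa2l1 at -0.45 and -1.26. With all other cells as the source, chosen after seeing the data as was the next setting, NK/T-like Lcn2 and Saa3 were at -0.40 and -1.17 and endothelial-like Saa3 at -1.39. Fibroblast-like S100a8, close to the neutrophil-like ratio, was at -0.0089 (-0.067 to 0.049) with that source. In cells without reference UMIs, NK/T-like Retnlg and G0s2 were at 0.17 and -0.15, endothelial-like S100a8 at -0.14, fibroblast-like Retnlg at 0.0079, and macrophage-like Retnlg and G0s2 at 0.042 and 0.063.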

Other observations

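Relatives of the 9 genes were counted over all cells, where 11.2% of all tested genes were at least 2-fold higher in the MSA-2 library and 8.36% at least 2-fold lower, and the values that follow are CPM over all cells without and with MSA-2. Of 10 tested other S100 genes, 0 were higher and 2 were lower. S100a6 was at 9060 and 8586 CPM, and S100a16 was lower, at 29.6 and 14.7. Of 5 tested whey acidic protein genes 2 were higher and 0 lower, with Wfdc17 at 39.1 and 167 CPM and Wfdc12 at 0.0436 and 0.167 (8 and 32 UMIs). Of 6 tested stefins 4 were higher and 0 lower. Stfa1 was at 0.382 and 3.15 CPM, with the same uncertainty of near-identical copies as Stfa2l1, and Cstb at 541 and 506. Of 2 tested resistin genes, Retn was higher, at 0.207 and 1.34 CPM, and Retnla was at 0.878 and 0.839. Of 5 tested other alarmins 3 were higher and 0 lower, among them Il33, at 11 and 81.9 CPM, and Tslp, at 0.256 and 3.67. Within fibroblast-like cells (201 untreated, 699 MSA-2) Il33 differed by less than 2-fold, at 493 and 859 CPM. Of 9 tested receptors and partners 3 were higher and 0 lower, among them the formyl peptide receptors Fpr1, at 2.36 and 39.8 CPM, and Fpr2, at 1.97 and 11.4.

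Barcodes called as doublets, which were left out, had 36.5 S100a9 and 19.7 Saa3 UMIs each in the MSA-2 library (570 barcodes, median depth 19179.5) and 0.135 and 0.298 in the untreated one (705 barcodes, median depth 18347).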
